A study of Populus ussuriensis with 18 samples.

Results

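Roots of Populus ussuriensis that had spent 336 h under low nitrogen (LN) conditions were compared with roots that had spent 12 h under them, the longest against the shortest LN time analysed here. The comparison rests on 6 of the 18 root libraries of the series, 3 of LN 336 h and 3 of LN 12 h. Its members are the genes that reached 1 FPKM or more in 3 or more of these 6 libraries, which holds for 23619 of the 30485 genes with deposited values. The other 6866 genes were below that limit and were not tested. FPKM are fragment numbers divided by gene length and library total, so a value is a share of the RNA of a library, and fewer cells of a type cannot be told apart from less of an RNA per cell.

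The plantlets of both groups, for which the labels name no transgene or mutation, came from clonal propagation in vitro on Woody Plant Medium with sucrose and agar. Cuttings from 4-week-old plantlets were rooted on normal medium with 10 mM nitrate and 5 mM ammonium and then moved to LN medium with 0.05 mM nitrate and 0.025 mM ammonium, under 16 h of light and 8 h of dark at 23 °C. The whole root system was harvested. The control group, to which some levels are compared below, was taken at 0 h, and the series also holds 24, 48 and 96 h of LN. The clock times of transfer and harvest are not stated. Every other LN time is a multiple of 24 h and 12 h is not, so time under LN and time of day cannot be told apart between 12 and 336 h. The 24 h libraries, which do differ from 336 h by whole days, are therefore given a comparison of their own beside the main one. The sample titles name no batch, and libraries of a time point may share one, so batch and time under LN cannot be told apart in either comparison. No roots kept on the control medium until 336 h were analysed here, so plant age and time under LN cannot be told apart either.

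Roots take up nitrate and ammonium through transporters of the NRT1/PTR (NPF), NRT2 and AMT families. Nitrate is reduced to nitrite and then, in plastids, by nitrite reductase to ammonium, which glutamine synthetase joins to glutamate. Transcription factors (TFs) of the NIN-like protein (NLP) family carry the nitrate signal into the nucleus, and LBD37 and its relatives repress nitrogen genes when nitrogen is ample. Plants short of nitrogen for days commonly lower assimilation, keep uptake systems of high affinity, and change root growth and the barriers of the root.

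The 6 libraries held 16526488 to 17890382 fragments counted on genes, and for a gene of 1707 bp, the median length, 3 fragments equal 0.0982 to 0.106 FPKM, a limit set by counting error alone. Within a group, the libraries correlated across genes on log2(FPKM + 1) with Pearson's r of 0.989 to 0.995, where genes do not count as independent replicates. Fragments per gene differed between replicates by more than sampling noise in every pair (chi-square per gene 1.58 to 6.54, where sampling alone gives about 1), so each library counts as 1 sample. Replicate 2 of LN 336 h stood slightly apart from the other 2 (chi-square 5.02 and 6.54, against 2.06 between those 2) and lay nearer to the 12 h libraries (r 0.919 to 0.920, against 0.910 to 0.913). The median of log2(FPKM + 1) over all genes was 2.787 ± 0.002 at 12 h and 2.834 ± 0.048 at 336 h (SD, n = 3 each), a difference of 0.047 in which every 336 h library was above every 12 h library (exact permutation test, two-sided, p = 0.1, the smallest that 3 libraries against 3 can give). The 100 most abundant genes held 13.7 to 14.04% of all FPKM at 12 h and 11.6 to 12.0% at 336 h.

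Markers of root cells were present at low levels in all 6 libraries, and the 10 root markers summed to 15.7 to 17.2 FPKM at 12 h and 29.8 to 36.7 FPKM at 336 h. The defining root genes SHORT-ROOT, an organiser of the endodermis, and SOMBRERO, a TF of the root cap, were the 2 members upregulated, and PLT2, a TF of the root meristem, was near the counting limit at 12 h (0.0266 to 0.115 FPKM) and at 0.705 to 1.12 FPKM at 336 h. Both AGL12 genes, MADS-box TFs of the root, had lower levels at 336 h, with 3.71 to 3.85 FPKM against 1.07 to 2.01 FPKM for Potri.019G076800 and 2.11 to 2.90 FPKM against 1.10 to 2.09 FPKM for Potri.013G102600, and of the 7 root markers tested none was downregulated (1 with quantile normalization, limma-voom, a pseudocount of 0.1 or no fold limit, and without replicate 2 of 336 h). Transcripts known from green tissue were present too, and all 6 of these markers were lower at 336 h, with summed levels of 193 to 204 FPKM at 12 h and 88.2 to 117 FPKM at 336 h. None of the 6 was at 0. The lowest of them at 336 h was the photosystem II 10 kDa polypeptide, at 5.38 to 8.07 FPKM at 12 h and 0.364 to 0.686 FPKM at 336 h. Their part in the other results was not tested.

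Between 12 and 336 h, 1191 genes were upregulated, which is 5.04% of the genes tested, and 1103 were downregulated, which is 4.67% (DEGs by limma on log2(FPKM + 1), where the log2 fold change had to reach 1 in size and the p adjusted by Benjamini-Hochberg had to be under 0.05). The 2 classes differed in level. Upregulated DEGs had a median of 2.80 FPKM at 12 h and 10.4 FPKM at 336 h, and downregulated DEGs a median of 17.1 FPKM at 12 h and 4.71 FPKM at 336 h. A change of at least 4-fold on the log2(FPKM + 1) scale was found for 156 of the upregulated and 222 of the downregulated DEGs. The median log2 fold change of all genes tested was 0.06, with 0.02 after quantile normalization, and the 5th and 95th percentiles were −0.96 and 1.00. With quantile normalization 1079 genes were upregulated and 1192 downregulated, so which direction held more DEGs depended on the scaling.

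**Figure D1:**
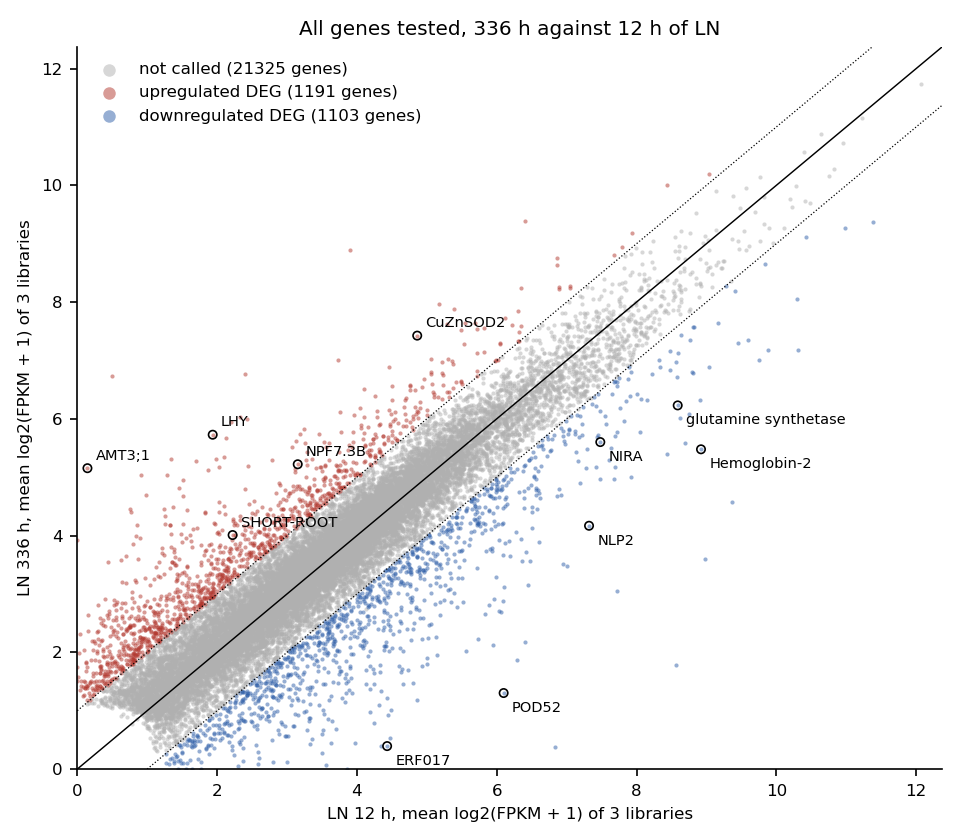
Mean log2(FPKM + 1) of the 3 LN 336 h libraries against that of the 3 LN 12 h libraries for all 23619 genes tested, 1 point a gene. The solid line marks equal levels and the dotted lines a log2 fold change of 1 in either direction, the 1191 upregulated and 1103 downregulated DEGs lie outside them, and 11 genes described in the text are ringed.

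Against 24 h, where the hours under LN differ by whole days, 1039 genes were upregulated at 336 h (4.42% of 23484 tested) and 853 downregulated (3.63%). The 2 comparisons share the 336 h libraries, so they are not independent and their values are given side by side. The 1191 genes upregulated against 12 h had a median log2 fold change of 1.33 in that comparison and of 1.12 against 24 h, where all 1191 were tested. Of the 1103 downregulated, the median was −1.42 against 12 h and, for the 1055 tested there, −1.10 against 24 h. The rest were below the filter in the comparison with 24 h, so that median leaves out genes low at both of its times. Of the 1191 upregulated genes 713 were also upregulated against 24 h, and of the 1103 downregulated genes 602 were also downregulated. The opposite call against 24 h was found for 2 of the former and 1 of the latter.

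The levels at the other times show where the 2 ends of the comparison lie. Among the 1191 upregulated DEGs, the mean at 336 h was the highest of all 6 groups for 915, and the mean at 12 h was the lowest of all 6 for 558. The control mean lay nearer to 12 h than to 336 h, or beyond 12 h, for 877 of them (73.6%), as did the mean at 24 h for 971 (81.5%) and at 96 h for 575 (48.3%). Among the 1103 downregulated DEGs the control was split, with 570 (51.7%) nearer to or beyond 12 h and 533 nearer to or beyond 336 h. The mean at 336 h was the lowest of 6 for 752 of these genes. The highest mean of the 6 was at 12 h for 480 of the 1103 and at 96 h for 224. The rest had theirs in another group. A steady order from 12 over 24, 48 and 96 to 336 h was found for 231 upregulated and 178 downregulated DEGs. Replicate 3 of 48 h stood apart from its group. Without it, 48 h lay nearer to 12 h for 783 in place of 867 of the upregulated DEGs, and the steady order was found for 195 and 119 genes. The highest mean of downregulated DEGs was then at 12 h for 466 genes and at 96 h for 183.

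**Figure D2:**
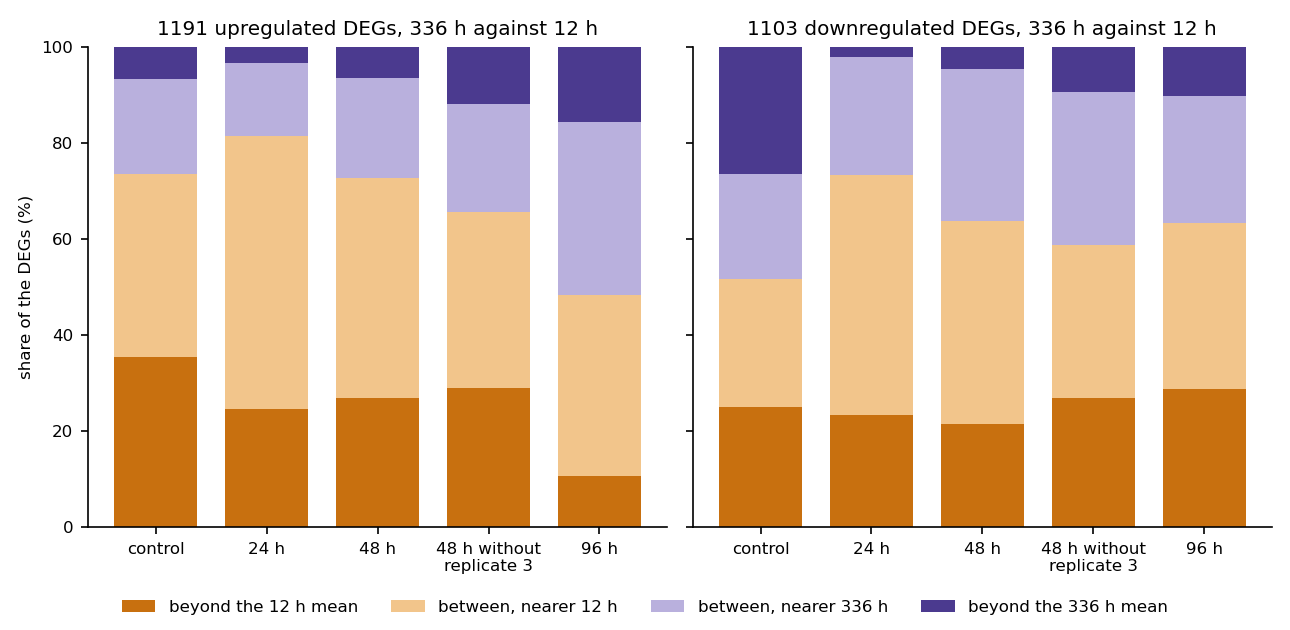
Where the group means of control, 24, 48 and 96 h lie between the means of 12 and 336 h on log2(FPKM + 1), as a share of the 1191 upregulated (left) and 1103 downregulated DEGs (right). Orange parts are genes nearer to or beyond the 12 h mean and violet parts genes nearer to or beyond the 336 h mean; the control lies on the 12 h side for 73.6% of upregulated and 51.7% of downregulated DEGs.

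Among genes of at least 5 FPKM, the largest rise and the 2 largest falls were those of genes without a description in the tables of the study, which are given by identifier together with a second such gene that rose. Potri.007G100100 was at 0.442, 0.354 and 0.459 FPKM in the 3 libraries of 12 h and at 110.1, 95.9 and 111 FPKM at 336 h, a 253-fold difference in mean FPKM (log2 fold change 6.23 ± 0.08, SE, adjusted p = 1.1e-08). Its means were 0.501 FPKM in the control, 1.22 FPKM at 24 h and 12.8 FPKM at 96 h. Potri.014G022900 stood at 13.9 FPKM in each 12 h library and at 495, 442 and 493 FPKM at 336 h (log2 fold change 5.00 ± 0.07, adjusted p = 1.1e-08), with 13.2 FPKM in the control and 148 FPKM at 96 h. In the other direction, Potri.006G002200 had 349, 383 and 407 FPKM at 12 h and 1.79, 4.44 and 1.72 FPKM at 336 h (log2 fold change −6.78 ± 0.24, adjusted p = 5.5e-07). Its control mean was 3.77 FPKM, so 12 h was a peak. Potri.013G089200 had 114, 114 and 112 FPKM at 12 h against 0.252, 0.478 and 0.193 FPKM at 336 h (log2 fold change −6.45 ± 0.09, adjusted p = 1.1e-08), with 1.22 FPKM in the control and a further high mean of 71.3 FPKM at 96 h.

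For the named genes, lists of roles were drawn from the gene descriptions in the tables of the study. Those tables hold genes selected on these libraries, so the counts are no independent evidence of a direction. Of the 900 described genes that were tested, 18% were upregulated and 17.2% downregulated, against 5.04% and 4.67% of all genes, and both pairs of shares are the reference for the counts of a list. The lists together had 684 members tested, of which 134 were upregulated and 127 downregulated.

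**Figure D3:**
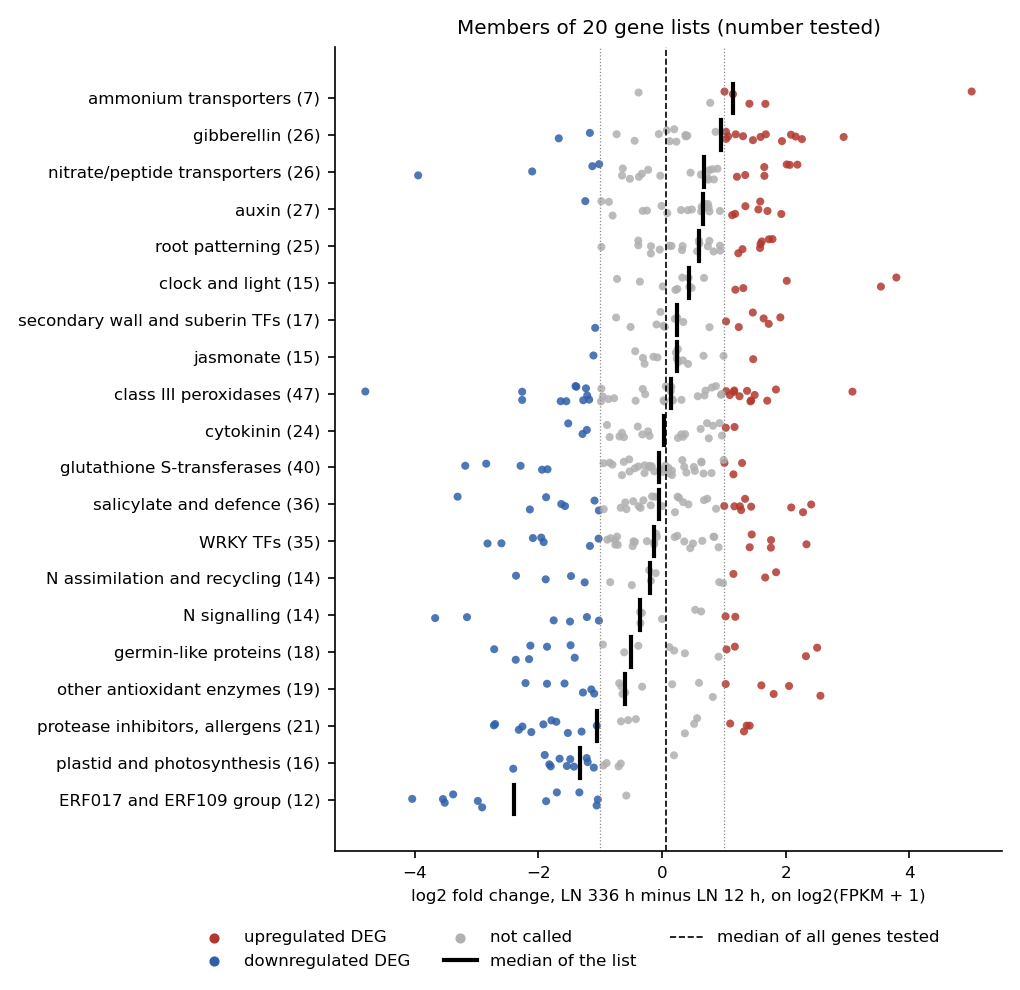
Log2 fold change from 12 to 336 h of each tested member of 20 gene lists, sorted by the median of the list (black bar), with upregulated DEGs red, downregulated DEGs blue and genes not called grey. The dashed line is the median of all genes tested (0.06) and the dotted lines mark −1 and 1; list medians run from −2.39 in the ERF017 and ERF109 group to 1.15 in the ammonium transporters.

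Ammonium transporters were upregulated at 336 h in 5 of 7 tested members and downregulated in none, with a median log2 fold change of 1.15 over the list. The largest change of any described gene in the upward direction belonged to a copy of AMT3;1, a member of the AMT2-type clade of ammonium transporters. This gene, Potri.001G305400, was at 0.0370, 0.183 and 0.103 FPKM at 12 h and at 36.6, 29.6 and 38.3 FPKM at 336 h. Its log2 fold change was 5.01 ± 0.11 (SE, adjusted p = 6.5e-08), and the 324-fold ratio of mean FPKM rests on only 9 fragments over the 3 libraries of 12 h. The gene was low in the control as well (0.671 FPKM), and later means were 0.357 FPKM at 24 h, 0.972 FPKM at 48 h, 3.86 FPKM at 96 h and 34.8 FPKM at 336 h.

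Of the other 3 AMT3;1 copies, Potri.T000200 had the highest level, with 6.91, 6.42 and 6.18 FPKM at 12 h and 23.3, 23.0 and 22.4 FPKM at 336 h (log2 fold change 1.67 ± 0.07, adjusted p = 8.0e-07). Potri.019G000800 and Potri.T000600 changed by 1.41 ± 0.10 and 1.15 ± 0.09 on the same scale. Near-identical copies can share reads, and similarity was not measured here, so values of single copies are uncertain. AMT1;2A, which belongs to the high-affinity ammonium uptake clade, had 49.6, 52.2 and 53.4 FPKM at 12 h and 110.5, 86.7 and 122 FPKM at 336 h, just past the fold limit (log2 fold change 1.01 ± 0.12, adjusted p = 2.0e-04). The call was lost without replicate 1 of 12 h (0.98), replicate 1 of 336 h (0.98) or replicate 3 of 336 h (0.91), and with limma-voom on fragments scaled by median ratios (0.95). Its control mean was 162 FPKM and its 24 h mean 163 FPKM, both above the 336 h mean of 106 FPKM, and its log2 fold change against 24 h was −0.63. AMT2;1 had 14.9, 15.5 and 14.5 FPKM at 12 h and 10.5, 12.7 and 10.8 FPKM at 336 h and was not called (log2 fold change −0.38 ± 0.08). Against 24 h, 2 of the 7 were upregulated.

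Nitrate and peptide transporters of the NPF family changed in both directions, with 7 of 26 tested members upregulated and 4 downregulated (2 downregulated without replicate 2 of 336 h). All 3 copies of NPF7.3, a transporter that loads nitrate into the xylem in Arabidopsis, were upregulated. NPF7.3A had 24.0, 24.9 and 26.2 FPKM at 12 h and 78.9, 80.9 and 83.1 FPKM at 336 h (log2 fold change 1.66 ± 0.07, adjusted p = 8.1e-07). NPF7.3B had 7.87, 7.96 and 7.86 FPKM at 12 h and 35.1, 42.0 and 32.5 FPKM at 336 h (2.07 ± 0.10, adjusted p = 1.6e-06). NPF7.3C had 6.81, 6.25 and 6.20 FPKM against 29.7, 27.1 and 30.3 FPKM (2.02 ± 0.07, adjusted p = 5.5e-07).

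The 3 copies differed in where the control and 24 h levels lay. In the control NPF7.3A stood at 136 FPKM, above its 336 h mean of 81.0 FPKM, and at 24 h it was already at 78.5 FPKM, so that its log2 fold change against 24 h was 0.04. NPF7.3B had 46.4 FPKM in the control and 15.6 FPKM at 24 h, and NPF7.3C had 18.8 FPKM in the control and 8.54 FPKM at 24 h. Both were upregulated against 24 h too, with log2 fold changes of 1.17 and 1.65. In all 3 copies the 12 h mean was below both the control mean and the 336 h mean.

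Of the remaining upregulated NPF members, NPF5.8 (Potri.004G068500) changed most, from 1.98, 1.23 and 1.49 FPKM at 12 h to 9.75, 11.9 and 10.4 FPKM at 336 h (log2 fold change 2.19 ± 0.12, adjusted p = 3.1e-06). NPF5.2 (Potri.002G258700), NPF8.1 (Potri.009G042400), whose Arabidopsis relatives carry short peptides, and NPF5.7 (Potri.008G061100) were upregulated by 1.66, 1.35 and 1.21 on that scale. The sharpest decline in the family was that of NPF5.4 (Potri.001G027100), with 19.1, 18.6 and 20.2 FPKM at 12 h and 0.271, 0.358 and 0.337 FPKM at 336 h (log2 fold change −3.94 ± 0.07, adjusted p = 2.7e-08). It was at 0.497 FPKM in the control, so the high level was that of 12 h. A second NPF5.2 gene, Potri.010G068100, went the opposite way to the first, from 22.6, 20.6 and 20.7 FPKM to 4.67, 3.65 and 4.36 FPKM (−2.10 ± 0.09, adjusted p = 1.1e-06). The 2 NPF1.2 copies were near the limit, at −1.13 for Potri.018G041600 (−0.86 without replicate 2 of 336 h, and not called with all 18 libraries in 1 fit) and −1.01 for Potri.018G040500 (−0.88 without replicate 2 of 12 h, −0.99 without replicate 3 of 12 h, −0.94 without replicate 1 and −0.97 without replicate 2 of 336 h). The other 15 of the 26 were not called, among them NPF3.1B with 33.9, 33.8 and 32.8 FPKM at 12 h and 25.8, 28.5 and 25.5 FPKM at 336 h (log2 fold change −0.32 ± 0.07).

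**Figure D4:**
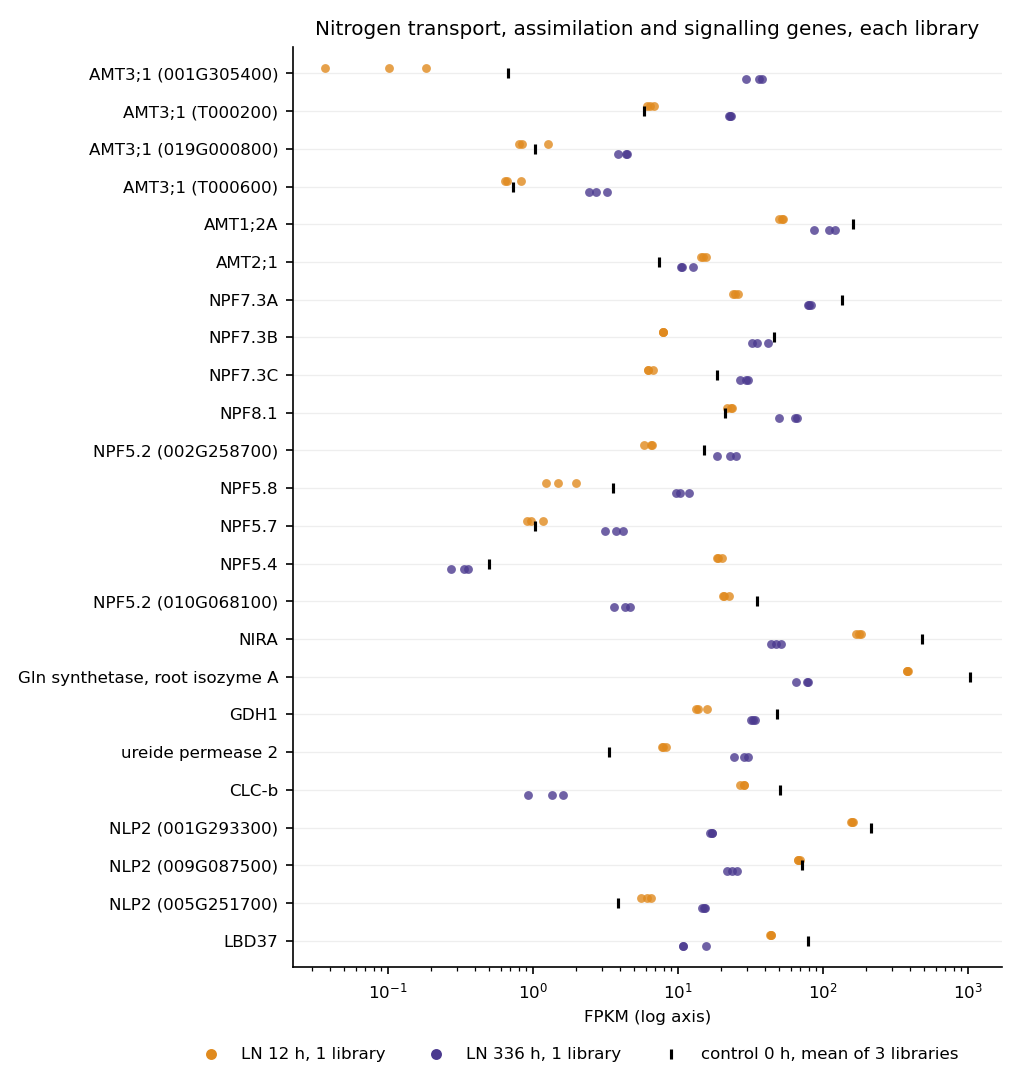
FPKM on a log axis of 24 genes of nitrogen transport, assimilation and signalling, 1 point for each of the 3 libraries of LN 12 h (orange) and of LN 336 h (violet), with a black tick at the mean of the control. All genes drawn but AMT2;1 are DEGs, so the lack of overlap between the libraries of the 2 times goes with their choice and is no result about nitrogen genes. The AMT3;1 copy at the top spans the widest distance, from 0.0370 to 38.3 FPKM.

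In nitrogen assimilation and recycling, 3 of 14 tested genes were upregulated (5 without replicate 3 of 336 h) and 4 were downregulated. The abundant enzymes of assimilation were among the latter. The root isozyme A of glutamine synthetase (Potri.004G085400), which forms glutamine from ammonium and glutamate, had 382, 383 and 387 FPKM at 12 h and 78.8, 65.7 and 78.4 FPKM at 336 h (log2 fold change −2.36 ± 0.08, adjusted p = 5.3e-07). Nitrite reductase A (NIRA, Potri.004G140800) had 184, 171 and 179 FPKM at 12 h and 47.6, 51.6 and 43.8 FPKM at 336 h (−1.88 ± 0.08, adjusted p = 1.0e-06). Both had been higher still in the control, at 1034 and 487 FPKM, and both stood higher at 24 h than at 12 h, at 683 and 281 FPKM. Their means were 259 and 122 FPKM at 96 h and 74.3 and 47.7 FPKM at 336 h, and their log2 fold changes against 24 h were −3.19 and −2.54.

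The other 2 downregulated members were a protein N-terminal glutamine amidohydrolase (Potri.006G051500, −1.47), which acts in the N-degron pathway of protein turnover, and amidase 1 (Potri.013G024100, −1.25). Upregulated were glutamate dehydrogenase 1, a mitochondrial enzyme that can release ammonium from glutamate, a ureide permease and an amidase. Glutamate dehydrogenase 1 (Potri.019G034800) had 13.9, 13.3 and 15.9 FPKM at 12 h and 32.1, 34.3 and 33.0 FPKM at 336 h (log2 fold change 1.16 ± 0.08, adjusted p = 1.1e-05). With 48.8 FPKM in the control and 28.1 FPKM at 24 h it was lowest at 12 h, and its log2 fold change against 24 h was 0.23. Ureide permease 2 (Potri.008G095500), a carrier of ureides and other nitrogen-rich ring compounds, had 8.24, 7.83 and 7.94 FPKM at 12 h against 28.4, 24.4 and 30.4 FPKM at 336 h (1.67 ± 0.09, adjusted p = 2.7e-06). For this gene no other group came near 336 h, the next being 96 h with 9.57 FPKM. The amidase C869.01 (Potri.004G171300) was upregulated by 1.85.

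Hemoglobin-2 (Potri.009G110800), a plant hemoglobin of the kind that scavenges nitric oxide, was outside the rule for named genes and was chosen after its values were seen. It had 465, 498 and 491 FPKM at 12 h and 39.5, 53.8 and 38.9 FPKM at 336 h (log2 fold change −3.44 ± 0.12, adjusted p = 5.3e-07). Its means were 651 FPKM in the control, 633 FPKM at 24 h and 241 FPKM at 96 h.

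Among the genes of nitrogen signalling, 2 of 14 tested were upregulated and 6 downregulated. CLC-b (Potri.001G331700), related to the exchanger that moves nitrate into the vacuole, had 28.5, 28.5 and 26.8 FPKM at 12 h and 1.36, 1.62 and 0.921 FPKM at 336 h (log2 fold change −3.67 ± 0.11, adjusted p = 2.7e-07). The 3 genes described as NLP2, a nitrate-responsive TF, did not move together. Potri.001G293300 had 156, 160.1 and 161 FPKM at 12 h and 17.1, 16.7 and 17.1 FPKM at 336 h (−3.15 ± 0.06, adjusted p = 4.8e-08), and Potri.009G087500 changed by −1.49. The third, Potri.005G251700, was upregulated, from 6.53, 5.55 and 6.13 FPKM to 15.4, 14.8 and 15.1 FPKM (1.19 ± 0.07, adjusted p = 5.5e-06).

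LBD37 (Potri.005G145500) was downregulated too, from 43.3, 44.3 and 44.0 FPKM to 10.8, 15.8 and 10.9 FPKM (log2 fold change −1.75 ± 0.13, adjusted p = 1.7e-05), with 78.6 FPKM in the control. KIN10 (Potri.013G090800), the catalytic subunit of the energy-sensing kinase SnRK1, was downregulated by −1.21, and the regulatory subunit SnRK1β1 by −1.02, a call lost without replicate 1 of 336 h (−0.97). NLP8, known in Arabidopsis for nitrate-promoted germination, was upregulated by 1.03 ± 0.11, a call lost with quantile normalization (0.97) and without replicate 2 of 12 h (0.98), replicate 3 of 12 h (0.97) or replicate 3 of 336 h (0.97), which leaves NLP2 Potri.005G251700 as the 1 upregulated member of the list in those fits. NLP7, the main nitrate sensor of the family, had 9.21, 7.52 and 8.57 FPKM at 12 h and 12.5, 13.01 and 12.5 FPKM at 336 h and did not reach the fold limit (0.54 ± 0.08), with 28.7 FPKM in the control. Against 24 h, 3 of the list were upregulated and 5 downregulated.

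Among the TF families listed, the one with the most downregulated members was AP2/ERF, whose TFs often act in ethylene and stress responses. Of its 72 tested genes 25 were downregulated and 2 upregulated (4 upregulated without replicate 2 of 336 h), with a median log2 fold change of −0.50. Most prominent was the ERF017 and ERF109 group, of which 11 of 12 tested members were downregulated and none upregulated, with a median of −2.39. ERF017 (Potri.006G218200) had 20.5, 21.3 and 19.99 FPKM at 12 h and 0.255, 0.718 and 0.0520 FPKM at 336 h (log2 fold change −4.04 ± 0.16, adjusted p = 8.0e-07). ERF110 (Potri.018G047300), which the tables describe as ERF017-like, had 44.0, 47.8 and 47.0 FPKM against 2.88, 4.25 and 2.28 FPKM (−3.54 ± 0.15, adjusted p = 1.2e-06). An ERF109-like gene, Potri.004G141200, had 14.4, 15.9 and 13.7 FPKM at 12 h and 0.160, 0.748 and 0.271 FPKM at 336 h (−3.51 ± 0.15, adjusted p = 1.0e-06).

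The ERF017-like genes named by the study had high means at both 12 and 96 h. ERF017 was near the counting limit in the control (0.0177 FPKM), had a mean of 20.6 FPKM at 12 h and 2.66 FPKM at 24 h, and stood at 33.3 FPKM at 96 h before the low level of 336 h. ERF110 had 0.0683 FPKM in the control, 11.3 FPKM at 24 h and 89.0 FPKM at 96 h, and ERF018 (Potri.006G138800) with 0.264 FPKM in the control, 66.0 FPKM at 12 h, 9.21 FPKM at 24 h, 118 FPKM at 96 h and 5.87 FPKM at 336 h. Of the ERF109 genes, 2 had their highest mean at 48 h, Potri.004G141200 with 29.4 FPKM (43.1 FPKM without replicate 3) and ERF109 (Potri.009G101900) with 41.0 FPKM (60.8 FPKM without replicate 3). Both 48 h means rest on replicates 1 and 2, with replicate 3 far lower (SD 23.7 and 34.5 FPKM). Against 24 h only 3 of 10 tested members of the group were downregulated, and for ERF018 the log2 fold change was −3.38 against 12 h and −0.65 against 24 h.

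Outside this group, AP2/ERF genes were called in both directions. Potri.010G129200, described as an AP2/ERF and B3 domain repressor of the RAV type, was counted here in the B3 family and not in the AP2/ERF list. It had 67.2, 66.7 and 68.0 FPKM at 12 h and 5.84, 7.15 and 6.24 FPKM at 336 h (log2 fold change −3.21 ± 0.08, adjusted p = 1.1e-07). RAP2.3 (Potri.014G126100), a group VII ERF of oxygen sensing, was downregulated by −1.12. ERF087 (Potri.003G161000) was upregulated, from 2.37, 1.89 and 2.14 FPKM to 7.80, 8.38 and 7.75 FPKM (1.52 ± 0.08, adjusted p = 2.4e-06).

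WRKY factors, TFs of defence and senescence, changed in both directions, with 5 of 35 tested upregulated and 7 downregulated. A WRKY41 gene (Potri.003G138600) had 17.2, 17.3 and 17.1 FPKM at 12 h and 1.27, 2.00 and 1.502 FPKM at 336 h (log2 fold change −2.82 ± 0.10, adjusted p = 5.5e-07). WRKY70 (Potri.006G109100), a regulator between salicylate and jasmonate signalling, had 8.19, 9.48 and 7.97 FPKM at 12 h and 48.4, 45.2 and 47.9 FPKM at 336 h (2.34 ± 0.08, adjusted p = 4.4e-07). Against 24 h the balance was the other way, with 11 upregulated and 2 downregulated. The WRKY75 gene Potri.015G099200 illustrates this with 13.8 FPKM at 12 h, 4.49 FPKM at 24 h and 19.3 FPKM at 336 h, and log2 fold changes of 0.46 against 12 h, which was not called, and 1.90 against 24 h, which was.

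In the MYB family 16 of 76 tested genes were upregulated and 7 downregulated, and in the bHLH family 12 of 50 and 2. MYB108 (Potri.014G117000), a stress-related MYB, was downregulated from 9.86, 12.1 and 11.1 FPKM to 0.599, 0.947 and 0.892 FPKM (log2 fold change −2.73 ± 0.10, adjusted p = 6.2e-07). The 2 genes described as MYB44 differed in direction. Potri.002G128900 was downregulated by −2.45, and MYB44B (Potri.017G017600) was upregulated by 1.40, from 8.75, 7.61 and 7.94 FPKM to 26.1, 21.7 and 21.6 FPKM. PHL5B (Potri.016G047900) and PHL5A (Potri.016G048000), MYB-related TFs of the family that includes the phosphate-starvation regulators, were downregulated by −2.36 and −1.89. They had been far higher in the control, at 60.6 and 56.6 FPKM, than at 12 h, at 14.1 and 7.41 FPKM, and ended at 1.97 and 1.27 FPKM at 336 h.

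Clock genes held some of the largest rises. Of 15 tested members of the list of clock and light genes 5 were upregulated and none downregulated. LHY is a MYB-like TF of the central oscillator that peaks around dawn. Its copy Potri.014G106800 had 2.66, 3.14 and 2.70 FPKM at 12 h and 50.5, 56.6 and 49.1 FPKM at 336 h (log2 fold change 3.79 ± 0.08, adjusted p = 6.5e-08), and the copy Potri.002G180800 had 3.30, 3.05 and 3.80 FPKM against 51.6, 52.9 and 45.5 FPKM (3.54 ± 0.09, adjusted p = 1.4e-07). REVEILLE 8 (Potri.016G083900), a relative of LHY that activates evening genes, was upregulated by 2.02 ± 0.09.

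Since time of day and time under LN cannot be told apart in these values, the groups at whole days of LN are given beside them. Whether those groups share a time of day is not stated. The first LHY copy had means of 18.3 FPKM in the control, 18.9 FPKM at 24 h, 31.0 FPKM at 48 h (44.3 FPKM without replicate 3) and 18.4 FPKM at 96 h. At 48 h, replicate 3 was far below replicates 1 and 2 in both copies (SD 23.0 and 23.5 FPKM). Libraries of this 1 whole-day group thus differed widely. In the others the SD of the first copy was 1.30 FPKM in the control, 0.455 FPKM at 24 h, 0.789 FPKM at 96 h and 4.00 FPKM at 336 h. Against 24 h the log2 fold change of the first copy was 1.41 and that of the second copy 1.46, both called. In that comparison 8 of the 15 genes were upregulated and none downregulated, with a list median of 1.10, against 0.44 in the comparison with 12 h.

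**Figure D5:**
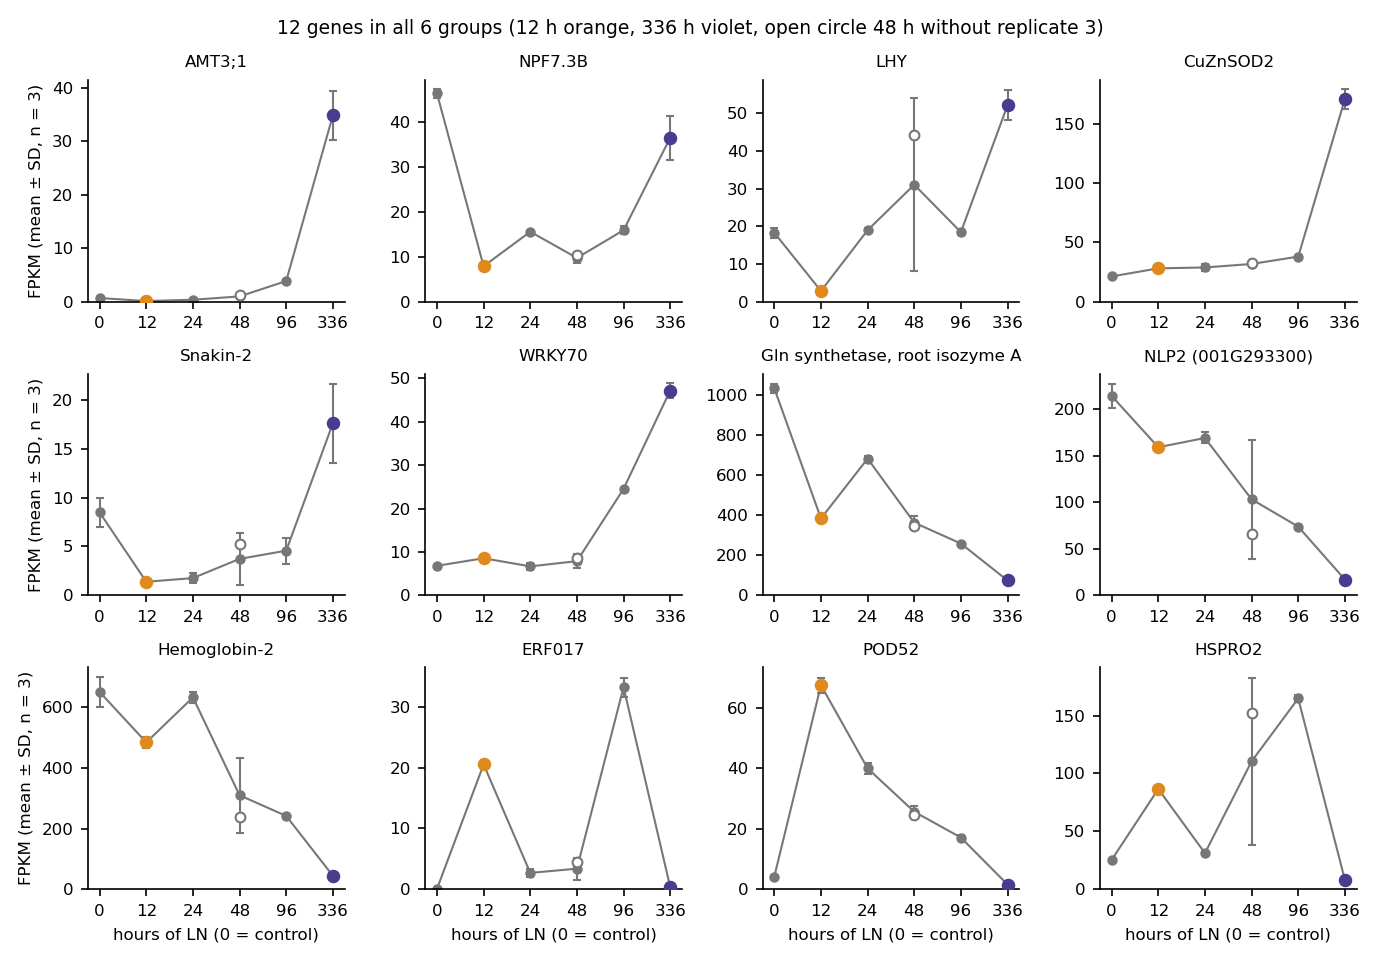
Mean FPKM ± SD (n = 3) of 12 genes in the control (0) and at 12, 24, 48, 96 and 336 h of LN, with evenly spaced times, 12 h in orange, 336 h in violet and 48 h without replicate 3 as an open circle. AMT3;1 is the copy Potri.001G305400, LHY the copy Potri.014G106800 and Snakin-2 the gene Potri.002G022700; AMT3;1, CuZnSOD2 and WRKY70 were highest at 336 h, while ERF017 had high means at 12 h (20.6 FPKM) and 96 h (33.3 FPKM) only.

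Genes of gibberellin, a growth hormone, were mostly called upwards, with 13 of 26 tested upregulated and 2 downregulated (median log2 fold change 0.95). The largest rises were those of Snakins, small cysteine-rich peptides of the gibberellin-stimulated GASA family. Snakin-2 (Potri.002G022700) had 1.17, 1.54 and 1.45 FPKM at 12 h and 17.9, 21.4 and 13.4 FPKM at 336 h (log2 fold change 2.94 ± 0.15, adjusted p = 2.7e-06). A second Snakin-2 gene (Potri.002G022600) changed by 2.26 and Snakin-1 (Potri.001G297700) by 2.16, the latter from 0.597, 0.458 and 0.368 FPKM to 5.89, 5.84 and 5.06 FPKM. GASA1 (Potri.002G022500), also described as Snakin-2, and GASA12 (Potri.017G124200) were not called, with log2 fold changes of 0.38 and 0.13. The 2 downregulated members were enzymes that inactivate gibberellin. Gibberellin 2-beta-dioxygenase 1 (Potri.001G378400) had 9.71, 9.38 and 10.4 FPKM at 12 h and 2.57, 2.51 and 2.15 FPKM at 336 h (−1.67 ± 0.08, adjusted p = 1.5e-06), and gibberellin 2-beta-dioxygenase 2 (Potri.010G149700) changed by −1.16. Against 24 h, 9 members were upregulated and 1 was downregulated.

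Auxin genes had 7 of 27 tested members upregulated and 1 downregulated (2 downregulated with quantile normalization, without replicate 1 of 12 h or without replicate 2 of 336 h). The leading ones were Aux/IAA repressors, which are themselves induced by auxin. IAA14 (Potri.008G161200), known in Arabidopsis for blocking lateral root initiation when stabilised, had 16.1, 15.8 and 16.8 FPKM at 12 h and 61.9, 68.7 and 63.7 FPKM at 336 h (log2 fold change 1.93 ± 0.07, adjusted p = 5.1e-07). The control level was 59.0 FPKM, close to that of 336 h. Both AUX28 genes were upregulated, Potri.002G044900 by 1.71 and Potri.005G218300 by 1.59, while IAA26 (Potri.018G057000) was downregulated from 2.54, 2.76 and 2.32 FPKM to 0.380, 0.701 and 0.432 FPKM (−1.24 ± 0.10).

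Cytokinin genes showed no leaning, with 2 of 24 upregulated (1 with quantile normalization, without replicate 1 of 12 h or without replicate 3 of 336 h), 3 downregulated and a median of 0.03 that became −0.07 with quantile normalization. A zeatin O-glucosyltransferase (Potri.006G048200), which stores cytokinin as a glucoside, changed by −1.51, and adenylate isopentenyltransferase 3 (Potri.014G139300), a nitrate-responsive enzyme that starts cytokinin synthesis, went from 1.21, 1.91 and 1.79 FPKM to 0.135, 0.0970 and 0 FPKM (−1.28 ± 0.11, adjusted p = 3.7e-05).

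In jasmonate signalling 1 of 15 members was upregulated and 1 downregulated. The upregulated member was TIFY 9 (Potri.001G062500), a JAZ-type repressor, with 9.41, 8.65 and 10.5 FPKM at 12 h and 28.1, 26.2 and 30.3 FPKM at 336 h (log2 fold change 1.48 ± 0.09, adjusted p = 4.8e-06). TIFY 5A was downregulated by −1.11 (−0.99 without replicate 3 of 12 h, not called). Both calls were lost when all 18 libraries were fitted together. TIFY 9 had its highest mean at 48 h, at 126 FPKM (186 FPKM without replicate 3). That mean rests on replicates 1 and 2, with replicate 3 far lower (SD 104 FPKM). Against 24 h, 6 of 14 members were upregulated and none downregulated.

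Regulators of root patterning were upregulated in 7 of 25 tested members and downregulated in none (1 with quantile normalization or without replicate 2 of 336 h). SHORT-ROOT (Potri.017G025900), which specifies the endodermis, had 4.48, 3.20 and 3.41 FPKM at 12 h and 15.7, 14.4 and 15.2 FPKM at 336 h (log2 fold change 1.79 ± 0.11, adjusted p = 4.5e-06). ETC1 (Potri.004G021300), a small MYB that promotes root hair fate, had 3.93, 4.31 and 5.07 FPKM against 18.1, 14.4 and 18.7 FPKM (1.73 ± 0.12, adjusted p = 9.2e-06). UPBEAT1 (Potri.002G193300), a bHLH TF that sets the border between division and elongation through peroxidase genes in Arabidopsis, had 0, 0.0828 and 0.233 FPKM at 12 h and 2.02, 2.86 and 2.295 FPKM at 336 h (1.62 ± 0.11, adjusted p = 1.1e-05). SOMBRERO (Potri.010G176600) of the root cap went from 1.95, 1.55 and 1.80 FPKM to 7.67, 8.17 and 6.27 FPKM (1.59 ± 0.10). All of these were upregulated against 24 h as well, with log2 fold changes of 1.27, 1.60, 1.55 and 1.27. The 7 tested genes of the cell cycle list were not called in either direction, and their log2 fold changes lay between −0.56 and 0.43.

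TFs of secondary walls and suberin, the waxy barrier of the endodermis and exodermis, had 6 of 17 tested members upregulated and 1 downregulated (none without replicate 3 of 12 h, where MYB86 was at −0.99). MYB39 is an activator of suberin genes in Arabidopsis. Its copy Potri.005G164900 had 1.96, 2.296 and 1.68 FPKM at 12 h and 9.96, 9.79 and 10.8 FPKM at 336 h (log2 fold change 1.92 ± 0.09, adjusted p = 1.7e-06), and the copy Potri.007G093900 had 1.43, 1.68 and 1.19 FPKM against 6.91, 5.95 and 6.95 FPKM (1.65 ± 0.09, adjusted p = 4.1e-06). The control means were between these, at 5.29 and 4.56 FPKM. NAC104 (Potri.003G022800), a NAC TF that holds back the differentiation of xylem vessels, was upregulated by 1.73 ± 0.10, and its control mean of 0.561 FPKM was on the side of 12 h.

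Enzymes that remove reactive oxygen changed in an uneven way, with 5 of 19 tested members upregulated and 6 downregulated. Superoxide dismutases that carry copper and zinc were among the former. CuZnSOD2 (Potri.005G044400) had 27.2, 27.4 and 29.7 FPKM at 12 h and 173, 162 and 178 FPKM at 336 h (log2 fold change 2.56 ± 0.07, adjusted p = 1.8e-07), and the copper chaperone that loads these enzymes (Potri.001G113800) had 4.16, 5.27 and 4.97 FPKM against 24.7, 21.9 and 22.6 FPKM (2.06 ± 0.09, adjusted p = 1.3e-06). A plastid CuZnSOD (Potri.004G216700) was upregulated by 1.81 ± 0.08. In all 3 the other groups stayed well below 336 h, with CuZnSOD2 at 21.3 to 38.0 FPKM in the control and at 24, 48 and 96 h.

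The downregulated antioxidant enzymes named by the rule act on peroxides or on ascorbate. Catalase-2 (Potri.005G100400) had 12.9, 13.5 and 13.5 FPKM at 12 h and 1.63, 2.70 and 2.07 FPKM at 336 h (log2 fold change −2.21 ± 0.12, adjusted p = 3.0e-06). Monodehydroascorbate reductase 5 (Potri.001G099600) had 91.0, 93.9 and 95.4 FPKM against 24.3, 27.4 and 23.6 FPKM (−1.86 ± 0.07, adjusted p = 8.7e-07). The plastid peroxiredoxin-2E (Potri.013G102100) changed by −1.57 ± 0.06, from a mean of 256 FPKM to 85.3 FPKM. The NADPH oxidase RBOHE (Potri.006G137300), a source of superoxide, was the 1 called member of 5 tested (2 without replicate 2 of 336 h), upregulated by 1.24 ± 0.07.

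Class III peroxidases, secreted enzymes of the cell wall, were split between 12 upregulated and 11 downregulated of 47 tested. POD52 (Potri.014G143200) had the largest decline of any described gene, from 68.3, 69.5 and 64.9 FPKM at 12 h to 1.09, 2.13 and 1.29 FPKM at 336 h (log2 fold change −4.80 ± 0.14, adjusted p = 2.4e-07), with 4.15 FPKM in the control and 40.0 FPKM at 24 h. POD4 (Potri.013G083600) had 69.9, 71.3 and 71.7 FPKM against 14.1, 13.9 and 14.1 FPKM (−2.26 ± 0.06, adjusted p = 1.5e-07). A gene described as peroxidase 3 (Potri.012G042800) went the other way, from 1.04, 1.86 and 1.33 FPKM to 19.4, 21.6 and 16.9 FPKM (3.08 ± 0.13, adjusted p = 1.2e-06). A second peroxidase 3 gene (Potri.007G122100) was upregulated by 1.84 and peroxidase 27 (Potri.T099300) by 1.70. The summed level of the list was 2281 to 2351 FPKM at 12 h and 1316 to 1422 FPKM at 336 h. Similarity between the members was not measured, and reads may have been shared between copies.

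Glutathione S-transferases, which conjugate glutathione to reactive compounds, gave few calls, with 3 of 40 upregulated and 5 downregulated. Among the latter were 3 parC-like genes with neighbouring locus numbers, Potri.011G112900 at −3.18, Potri.011G113100 at −2.84 and Potri.011G113300 at −2.29. The first had 11.7, 11.4 and 11.1 FPKM at 12 h and 0.325, 0.211 and 0.596 FPKM at 336 h (SE of the fold change 0.10, adjusted p = 3.6e-07). GST23A (Potri.008G174900), which was named by the study, had 154, 164 and 165 FPKM at 12 h and 164, 154 and 172 FPKM at 336 h, a log2 fold change of 0.02 ± 0.07.

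Germin-like proteins, apoplastic proteins of which some have superoxide dismutase activity, gave 4 upregulated and 7 downregulated of 18 tested. The 2 directions held different genes of the same description. Potri.013G052100 (germin-like subfamily 1 member 13) had 85.2, 82.6 and 86.6 FPKM at 12 h and 14.2, 8.80 and 14.1 FPKM at 336 h (log2 fold change −2.71 ± 0.16, adjusted p = 4.6e-06), while Potri.019G025900 with that description had 1.32, 1.37 and 0.881 FPKM against 10.99, 8.36 and 10.7 FPKM (2.33 ± 0.13, adjusted p = 3.0e-06). Subfamily 1 member 7 (Potri.019G026200) was upregulated by 2.51 ± 0.09. As with the peroxidases, any sharing of reads between similar copies would leave single members uncertain.

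Plastid and photosynthesis genes were downregulated in 11 of 16 tested members and upregulated in none, with a median log2 fold change of −1.32. The photosystem II 10 kDa polypeptide (Potri.001G438700) had 7.28, 5.38 and 8.07 FPKM at 12 h and 0.404, 0.364 and 0.686 FPKM at 336 h (log2 fold change −2.40 ± 0.14, adjusted p = 4.3e-06). HCF136 (Potri.007G071300), an assembly factor of photosystem II, had 21.3, 22.8 and 23.3 FPKM against 5.21, 6.42 and 4.45 FPKM (−1.89 ± 0.11, adjusted p = 4.5e-06), and plastid malate dehydrogenase (Potri.004G112800) changed by −1.82 ± 0.06, from a mean of 95.7 FPKM to 26.4 FPKM. The 6 markers of green tissue given above belong to this list, and 3 of them were called (5 without replicate 2 of 336 h). Against 24 h, 14 of the 16 were downregulated and none upregulated, with a median of −1.35, so this list had about the same median against either time.

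Defence genes related to salicylate changed in both directions, with 9 of 36 upregulated and 7 downregulated. HSPRO2 (Potri.008G066000), described as a nematode resistance-like protein, had 83.9, 88.0 and 87.7 FPKM at 12 h and 8.25, 9.77 and 5.99 FPKM at 336 h (log2 fold change −3.30 ± 0.14, adjusted p = 1.2e-06), after a mean of 165 FPKM at 96 h. SAR DEFICIENT 1 (Potri.015G045300), an activator of salicylate synthesis in Arabidopsis, had 2.04, 2.25 and 2.58 FPKM at 12 h and 18.7, 12.8 and 18.6 FPKM at 336 h (2.41 ± 0.14, adjusted p = 4.5e-06). DOWNY MILDEW RESISTANCE 6 (Potri.015G002800), an oxygenase that hydroxylates salicylate, had 10.0, 10.3 and 9.59 FPKM against 52.3, 50.1 and 54.9 FPKM (2.28 ± 0.07, adjusted p = 2.4e-07). The means of this gene in the 5 other groups were 4.22 to 12.9 FPKM (15.7 FPKM at 48 h without replicate 3).

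Protease inhibitors and allergen-like proteins, abundant stress and storage proteins, were downregulated in 11 of 21 tested members and upregulated in 4 (median log2 fold change −1.05). An MLP-like protein 43 (Potri.008G131100) had 867, 962 and 1010 FPKM at 12 h and 138, 172 and 128 FPKM at 336 h (log2 fold change −2.70 ± 0.12, adjusted p = 1.2e-06). The allergen-type genes Potri.008G212400 and Potri.011G026000 changed by −2.72 and −2.31. Of these, Potri.011G026000 was at 5.74 FPKM in the control, 195, 193 and 193 FPKM at 12 h and 44.2, 31.8 and 39.6 FPKM at 336 h. The summed level of the list was 5815 to 6005 FPKM at 12 h and 2993 to 3033 FPKM at 336 h. Against 24 h, 3 of 20 members were upregulated and 4 downregulated, with a median of −0.16.

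The study names 73 genes with an identifier, of which 64 were tested here. Of these, 7 were upregulated, 20 downregulated and 37 not called, and the other 9 were below the filter. The shares up and down were 18% and 17.2% among described genes and 5.04% and 4.67% among all genes tested. The study drew its named genes from these same libraries, so the counts are no independent evidence of a direction. Besides the ERFs, the downregulated ones include the ribonuclease RNS1 (Potri.008G086700), known for its induction by phosphate shortage, with 19.8, 20.6 and 20.6 FPKM at 12 h and 3.30, 3.57 and 3.77 FPKM at 336 h (log2 fold change −2.23 ± 0.07, adjusted p = 2.6e-07). They also include MYB111 (Potri.014G122700), a regulator of flavonol synthesis, with 13.6, 10.3 and 10.99 FPKM against 3.38, 4.94 and 3.26 FPKM (−1.39 ± 0.15, adjusted p = 1.0e-04). In both, the control was low, at 0.986 and 0.230 FPKM.

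Among those not called, TGA1B (Potri.007G085700), a bZIP TF of the nitrate response, had 59.1, 53.5 and 54.9 FPKM at 12 h and 57.0, 53.9 and 56.7 FPKM at 336 h, with overlapping groups and a log2 fold change of 0.00 ± 0.07. NAC47 (Potri.019G031400) had 25.3, 23.8 and 24.6 FPKM against 23.4, 24.6 and 23.2 FPKM (−0.05 ± 0.06). Peroxidase N1 (PODN1, Potri.016G125000) passed the adjusted p but missed the fold limit by little, with 62.3, 67.1 and 66.8 FPKM against 34.0, 28.6 and 35.8 FPKM (−0.98 ± 0.09, adjusted p = 5.7e-05).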

How the data were processed

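RNA-seq of whole roots was analysed for 3 libraries at 12 h and 3 at 336 h of LN, with the 12 other libraries of the series for context. The authors deposited FPKM per gene and library; the labels name Bowtie2 2.2.3 and HISAT2 2.1.0, the identifiers are those of P. trichocarpa, and the sources used here name no counting tool. Mapping to another species can lower the values of diverged genes. All 30485 deposited genes gave whole fragments (recovered from the FPKM steps), which gave library totals and gene lengths.

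Genes that reached 1 FPKM in 3 or more of the 6 libraries were tested on log2(FPKM + 1) by limma 3.58.1 (R 4.3.3) with Benjamini-Hochberg adjustment over all genes tested. Fold changes, which this scale makes too small for low genes, are means at 336 h minus 12 h, with moderated standard errors (SE). Tables and figures used Python 3.11.15, numpy 2.4.6, pandas 2.3.3 and matplotlib 3.10.9. A comparison with 24 h used the same steps. On simulated data for 336 h against 12 h, with 22973 genes tested, 91.9% of 197 changed genes that passed the filter were recovered, with 0 false calls. The planted changes all exceeded the fold limit in FPKM, other genes had no change, and all genes had the same dispersion. Few false calls could arise in that setting, so it checks the steps and gives no error rate for these libraries.

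The labels call the replicates biological but do not say how plantlets were pooled, so p-values measure the spread between these libraries. Named genes were those the study names with an identifier, the 10 largest rises and 10 largest falls among DEGs of at least 5 FPKM without overlap (of undescribed genes, the text gives at most 2 per direction), and up to 3 DEGs per direction in each of 32 lists, with every DEG of the nitrogen lists. The members and lists were chosen with earlier results of these data known. Alternatives were another pseudocount, no filter, quantile normalization, a variance trend, all 18 libraries in 1 fit, a replicate block, each library left out, other thresholds and limma-voom on the recovered fragments. No genome was used, so no sequences or positions are given.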

Additional observations from a re-analysis of the deposited data

How the results depend on the processing

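Against 1191 upregulated and 1103 downregulated genes in the comparison of 336 with 12 h, limma-voom on recovered fragments, where no pseudocount of 1 FPKM holds back low genes, called 2279 upregulated and 1626 downregulated genes with library totals and 2053 and 1794 with median ratios. A pseudocount of 0.1 gave 1799 and 1447, and no fold limit 8067 and 6191. Without the fold limit, 572 in place of 261 list members were called. The other alternatives stayed within 1.5 times, namely no filter (1200 and 1112), a variance trend (1191 and 1104), an adjusted p under 0.01 (1188 and 1103), all 18 libraries in 1 fit (1174 and 1074) and quantile normalization (1079 and 1192). Leaving out 1 library gave 1192 to 1207 upregulated and 1061 to 1216 downregulated genes, the latter the count without replicate 2 of 336 h. Against 24 h, the counts were 841 and 989 with quantile normalization and 1016 to 1056 and 827 to 928 with 1 library left out. In the alternatives of the comparison with 12 h, no called gene had the opposite call.

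Of the 165 named DEGs, 151 kept their call in every alternative. Of 64 counts in the lists, up and down, no fold limit moved 48 by more than 1.5 times, limma-voom 20 with library totals and 22 with median ratios, a pseudocount of 0.1 moved 14, quantile normalization 5 and leaving out replicate 2 of 336 h 9. Deviations of same-numbered libraries from their group means correlated with r of 0.05, 0.04 and −0.07, and those of other-numbered libraries with r of −0.10 to 0.08. With 3 libraries a group, these values cannot show whether the same replicate number marks paired libraries. With the number as a replicate block, 1191 genes were upregulated and 1105 downregulated against 12 h, and 1039 and 853 against 24 h. The difference in the median of log2(FPKM + 1) was 0.048 over the genes tested and 0.041 for the mean over all genes. With 3 libraries a group, no permutation p below 0.1 could be reached, and levels near 0.1 FPKM rest on about 3 fragments in a gene of median length.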
